A study of Homo sapiens with 6 samples.

Results

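Persistent break clusters at gene starts are regions in which DNA double-strand breaks (DSBs) were found in both replicates after 10 min and again in both replicates after 20 min of camptothecin (CPT), close to a protein-coding 5′ end. A DSB site ran from where a reverse-strand peak starts to where the closest forward-strand peak ends, provided that the latter overlapped the former or started under 150 bp downstream. Sites that overlapped between the replicates of a time were merged, and merged sites of 10 and 20 min that overlapped each other formed a persistent cluster. Clusters were kept on chromosomes 1 to 22, at least 1 Mb from the large assembly gaps, with a midpoint within 5 kb of a protein-coding 5′ end. This left 413 clusters of 5788 persistent, transient (10 min only) and late (20 min only) clusters in the whole data set, and of 726 persistent clusters that met the first 2 conditions. The clusters were chosen by the peaks present in all 4 treated libraries, so that the presence and height of these peaks is given as a description and not as a finding.

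The cells were HCT116, an established human colorectal carcinoma line, and the method was END-seq, in which an adapter is ligated to free DNA ends of cells held in agarose. Reading starts at the end and runs away from it, so the left flank of a break carries reverse-strand reads and the right flank forward-strand reads. The groups compared were cells given 10 µM CPT for 10 min (CPT10) and for 20 min (CPT20), with 2 biological replicates each, and all libraries held added murine pre-B cells as a spike-in. The sample names print 10 and 20 as µM, whereas the treatment protocol gives 10 µM for 10 or 20 min, which is the reading used here. Peak lists of untreated cells were not analysed here, so no background measured in the same way can be set beside the values. The authors used untreated libraries as input when calling peaks, but without local background. Each list thus had a constant expected height, and untreated signal at a site did not enter its peaks. Members may therefore include sites that are also present in untreated cells.

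DNA topoisomerase I (Top1) nicks 1 strand of DNA, lets the helix turn and closes the nick again, which removes the supercoils that build up ahead of and behind RNA polymerase. CPT holds the enzyme on the nicked strand, and such trapped cleavage complexes can become DSBs in transcribed genes. As possible routes the paper names replication running off at a trapped complex and endonucleases acting at stalled replication forks. Promoter-proximal regions are where polymerase pauses before it moves into the gene, where the nascent RNA can pair with its template to form an R-loop, and where Top1 activity is known to be coupled to pause release. Transcription was not measured in these samples, so gene activity is not used in any comparison.

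To show what the DNA between the highest peaks looks like, 200 bases are printed for 4 of the best-ranked members. They were chosen so that no untranslated exon is included and the named gene itself is crossed. Each stretch is centred between the highest forward and the highest reverse summit, is read 5′ to 3′ on the coding strand from GRCh37, and has runs of 3 or more G in capitals. The summits can lie farther apart than 200 bases, so a stretch need not contain either. RCC1 is shown from chr1:28833701-28833900 on the plus strand in intron 1, ZFP36L1 from chr14:69259250-69259449 on the minus strand in intron 1, EIF4A2 from chr3:186502875-186503074 on the plus strand across exon 4, and SLC38A2 from chr12:46765265-46765464 on the minus strand in intron 1.
RCC1: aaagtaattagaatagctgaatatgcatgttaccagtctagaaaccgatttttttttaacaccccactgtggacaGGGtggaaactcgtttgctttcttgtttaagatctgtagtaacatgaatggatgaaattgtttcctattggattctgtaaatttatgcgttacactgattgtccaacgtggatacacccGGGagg
ZFP36L1: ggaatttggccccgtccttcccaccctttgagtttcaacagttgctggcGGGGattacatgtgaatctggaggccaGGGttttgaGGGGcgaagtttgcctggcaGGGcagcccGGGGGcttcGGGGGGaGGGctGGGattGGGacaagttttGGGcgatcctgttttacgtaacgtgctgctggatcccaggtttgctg
EIF4A2: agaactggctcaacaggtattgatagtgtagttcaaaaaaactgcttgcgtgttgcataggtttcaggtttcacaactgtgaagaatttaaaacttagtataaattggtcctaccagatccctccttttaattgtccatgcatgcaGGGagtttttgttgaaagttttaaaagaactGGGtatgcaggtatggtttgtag
SLC38A2: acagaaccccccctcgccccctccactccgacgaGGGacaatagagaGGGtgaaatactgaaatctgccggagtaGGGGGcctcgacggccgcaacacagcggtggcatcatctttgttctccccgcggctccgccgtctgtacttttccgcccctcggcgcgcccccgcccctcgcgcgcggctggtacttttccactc
The centres of these stretches lay 1346, 3620, 1981 and 1191 bp downstream of the 5′ ends of RCC1, ZFP36L1, EIF4A2 and SLC38A2. The sequences differed widely in composition, from 37.5% GC in EIF4A2 and 38.0% in RCC1 to 58.5% in ZFP36L1 and 65.5% in SLC38A2. The number of G runs was 2 in RCC1, 10 in ZFP36L1, 2 in EIF4A2 and 3 in SLC38A2. A run of G is a plain sequence feature here and not a mapped cleavage site.

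The 8 peak lists held 286491 to 826744 peaks each. Their expected summit height, a constant that follows library size, was 0.727 to 1.44 fragments, lowest in CPT10 replicate 2 and highest in CPT10 replicate 1. Heights are therefore given relative to it. The relative height of a cluster in a library is the geometric mean of its highest forward and its highest reverse summit, each divided by the expected height of its list. These lists carry no spike-in scaling, so a relative height ranks clusters within a library and does not give the number of breaks per cell, and more breaks in each cell cannot be told apart from more cells with a break. Few genes carry a persistent cluster (2.58% of all protein-coding genes) or a late one (5.02%), so peak lists say little about the cell type. Of 22 colorectal epithelial marker genes 3 (13.6%) had one, KRT19 and the neighbours KRT8 and KRT18, which share 1 cluster, and 18 had neither a persistent nor a late cluster. Of 29 genes of other tissues, such as ALB, HBB and GFAP, 0 had either.

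Persistent clusters lay mostly inside the genes, a short way downstream of the start. Of 413 members, 331 had their midpoint downstream of the nearest 5′ end, which is 80.1% (95% Wilson interval 76.0% to 83.7%). The median position was 1502 bp downstream, with quartiles at 527 and 2517 bp. From 0 to 1 kb there were 66 members, from 1 to 3 kb 199 (48.2%) and from 3 to 5 kb 66. The fullest 0.5 kb bin ran from 1.5 to 2 kb and held 68 members, or 16.5%. Late and transient clusters at gene starts had 79.0% and 73.2% downstream, at median positions of 1415 and 1469 bp. The placement was therefore not particular to members. The rule placed no condition on the direction from the 5′ end. Intervals on shares of clusters cover counting error only, since clusters near each other share their surroundings and the authors did not remove PCR duplicates. The positions depend on which 5′ ends are used, as the median was 675.5 bp and the downstream share 75.2% against the 5′ ends of all transcripts of protein-coding genes.

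**Figure D1:**
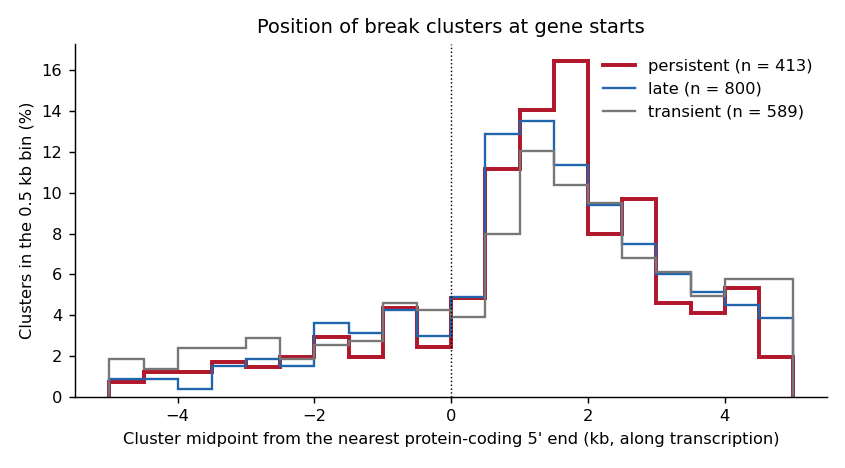
Share of clusters (%) per 0.5 kb bin against the distance of the cluster midpoint from the nearest protein-coding 5′ end (kb, positive along transcription), for 413 persistent, 800 late (20 min only) and 589 transient (10 min only) clusters. The persistent clusters peak in the bin from 1.5 to 2 kb with 16.5%, and the late and transient clusters in the bin from 1 to 1.5 kb with 13.5% and 12.1%.

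Within the genes, the first intron was the commonest place of the midpoints. By the annotation of the nearest gene's canonical transcript, 152 midpoints (36.8%) were in intron 1, 88 (21.3%) in a later intron, 44 (10.7%) in a coding exon and 20 (4.84%) in an untranslated exon. A further 92 (22.3%) were upstream of the transcript, 15 (3.63%) downstream of it, and 2 had no annotated transcript. Of 329 downstream members with such a transcript, 304 (92.4%) were past the end of exon 1, by a median of 1419 bp over all 329. The 5′ end itself was covered by the interval of 123 clusters (29.8%).

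The 82 members upstream of their nearest 5′ end had a median position of -1742.5 bp, and most were inside a different gene. The midpoint of 58 of them (70.7%) was in the body of another protein-coding gene, of 10 (12.2%) in a noncoding gene only, and of 14 (17.1%) in no annotated gene. The nearest gene is therefore only a name for some clusters. The cluster named for POLG2, a subunit of mitochondrial DNA polymerase, was in DDX5, an RNA helicase gene, and those named for ZBTB37 and SLC3A2 were in GAS5 and SNHG1, noncoding genes that carry small nucleolar RNAs in their introns. The clusters at HSPE1, RDH10 and MUS81 were in HSPD1, RPL7 and CFL1, which encode a mitochondrial chaperonin, a ribosomal protein and the actin-severing factor cofilin. Divergent starts, with a second protein-coding 5′ end facing away within 1 kb, were found at 40 of 413 members (9.69%), against 8.62% of all protein-coding genes.

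The 413 members carried the names of 380 genes, and 108 had more than 1 protein-coding 5′ end within 5 kb. More than 1 cluster was found at 30 genes. These included FOS, FOSB and FOSL1 of the AP-1 transcription factor family, RPL32, RPL37 and RPLP0 of the ribosome, HNRNPA1 and KRT19, each with 2 clusters, RPLP1 with 3 and NBPF1 with 4. NBPF1 and TBC1D3L (2 clusters) belong to multi-copy families whose reads may be placed on the wrong copy, so their clusters are uncertain. At the edge of the window, TRIB1 at +4978 bp and CIRBP at -4832 bp were the members nearest to 5 kb on either side, and FAM3C at +5039 bp and NECAP1 at +5126 bp were the nearest outside it. CIRBP had relative heights of 8.88 and 12.2 at 10 min and 14.2 and 16.1 at 20 min, and TRIB1 30.9 and 26.5 at 10 min and 31.7 and 27.2 at 20 min. Outside the window, FAM3C had 10.7 and 13.4 at 10 min and 18.1 and 19.6 at 20 min, and NECAP1 12.9 and 12.3 at 10 min and 8.23 and 15.1 at 20 min.

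Members were broad. Their median width was 1996 bp, from 505 to 11290 bp, against 938.5 bp for late and 721 bp for transient clusters at gene starts and 1721 bp for persistent clusters away from gene starts. Merging over 4 rather than 2 libraries widens a cluster by construction, so only the last of these values was built in the same way. Each member held a median of 2 forward and 2 reverse peaks in each library. The widest members were those at TRIB1, which encodes a pseudokinase that guides protein degradation, with 11290 bp, at POLG2 with 10305 bp and at ZBTB37 with 9607 bp.

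Relative heights were alike in the 4 libraries. The median over members was 16.1 in CPT10 replicate 1, 19.1 in CPT10 replicate 2, 19.8 in CPT20 replicate 1 and 19.4 in CPT20 replicate 2. The lowest member stood at 5.95, 6.12, 5.52 and 7.79 and the highest at 70.4, 59.0, 76.8 and 61.6 in the same order. In fragments, the median highest summit was 24 on the forward and 24 on the reverse strand in CPT10 replicate 1 and only 14 and 13 in CPT10 replicate 2, so a single fragment moves the value of a typical member by a few percent. Persistent clusters away from gene starts had medians of 16.7, 18.5, 18.5 and 17.9, close to those of members. Over members, the log2 relative height correlated between replicates with r = 0.50 at 10 min and r = 0.65 at 20 min, which is a correlation across 413 clusters and not across samples.

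The members that ranked high in every library were led by RCC1, the nucleotide exchange factor of the GTPase Ran. Its cluster at chr1:28832062-28838690 also covers SNHG3, a host of a small nucleolar RNA, and had relative heights of 44.6 and 42.4 at 10 min and 64.5 and 61.6 at 20 min. Both 20 min values were above both 10 min values. Next came a cluster at chr17:74726569-74732987, in METTL23 and a gene with an Ensembl name only (ENSG00000267168) and within 5 kb of the start of the splicing factor gene SRSF2, with 61.7 and 52.1 at 10 min and 76.8 and 52.3 at 20 min. There the times overlapped. HNRNPA1, which encodes an RNA-binding protein of splicing, had 27.7 and 57.8 at 10 min and 47.5 and 51.0 at 20 min at chr12:54674012-54677540. The replicates of 10 min were farther apart than the times.

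ZFP36L1 encodes a protein that binds AU-rich RNA elements and promotes RNA decay, and its cluster at chr14:69257825-69259936 had 30.2 and 42.3 at 10 min and 49.0 and 44.9 at 20 min. SLC38A2, a transporter of neutral amino acids, had 32.4 and 35.8 at 10 min and 29.2 and 32.5 at 20 min at chr12:46763147-46766371. Of these, ZFP36L1 had both 20 min values above both 10 min values and SLC38A2 had overlapping times. These are the 2 members with the most GC-rich of the sequences printed above. The cluster in CRIP1 at chr14:105952891-105953993, a gene of a small zinc-binding protein, had 28.8 and 59.0 at 10 min and 61.0 and 53.3 at 20 min. In GAS5 the values were 46.5 and 41.0 at 10 min and 50.3 and 26.1 at 20 min, in SNHG1 43.8 and 44.1 at 10 min and 45.8 and 30.3 at 20 min, and in DDX5 29.8 and 38.5 at 10 min and 36.1 and 34.6 at 20 min. At these 4 clusters the times overlapped.

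**Figure D2:**
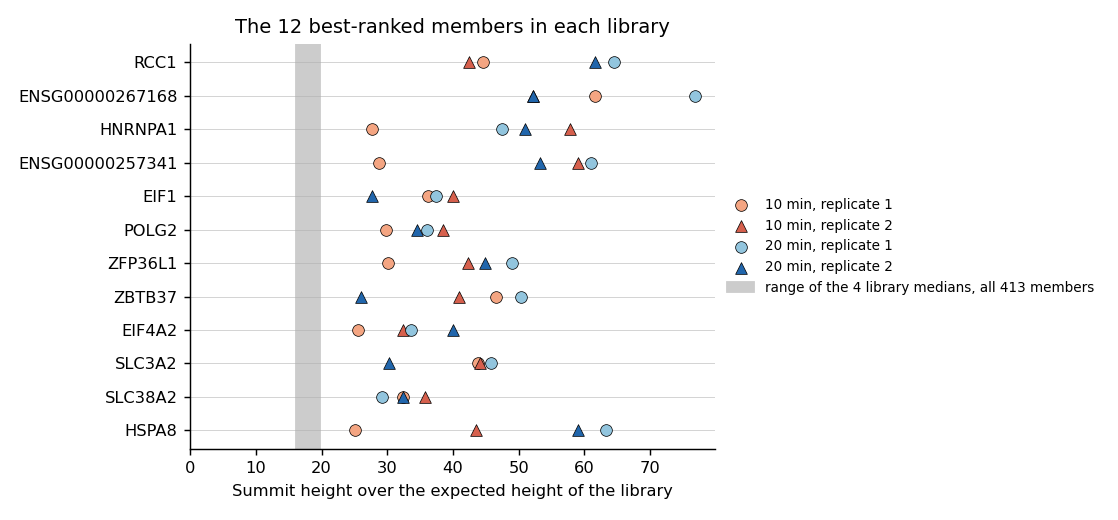
Relative height (highest summits over the expected height of the library, no unit) of the 12 members with the best worst rank over the 4 libraries, 1 point per library, with the range of the 4 library medians of all 413 members shaded. All points of these 12 members lie above the shaded range of 16.1 to 19.8, and the spread within a time is often as wide as the distance between times, as at HNRNPA1.

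Read by gene groups, the largest share of genes with a member was among the cytoplasmic ribosomal proteins. Of all 19095 eligible protein-coding genes, 492 had a member within 5 kb of the 5′ end, which is 2.58%, and 5.02% had a late and 3.56% a transient cluster. The counts for each list are set beside that 2.58% as a description, since the lists were drawn up with these data known.

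Ribosomal protein genes with a member numbered 49 of 75 (65.3%), and a further 13 had a late cluster only. They covered both subunits, with 19 genes from RPSA to RPS28 and 30 from RPL3 to RPLP1. Their 57 clusters had a median width of 2786 bp. Measured from the 5′ end of the ribosomal gene itself, which for 8 of them is not the nearest, the median position was 1996 bp and 55 (96.5%) were downstream. The median relative heights were 20.2 and 21.9 at 10 min and 23.8 and 21.9 at 20 min, each above the median of all members in its library. RPLP0, a stalk protein of the large subunit, had 36.9 and 29.9 at 10 min and 28.4 and 38.3 at 20 min, with overlapping times. RPL37 had 30.5 and 27.1 at 10 min and 28.5 and 25.5 at 20 min, the steadiest of the ribosomal genes given here. RPL3, near the catalytic centre of the large subunit, had 18.9 and 33.1 at 10 min and 33.4 and 25.3 at 20 min. The cluster in RPL7 had 26.3 and 39.1 at 10 min and 39.1 and 37.2 at 20 min, also overlapping. Ribosomal protein genes have many processed pseudogenes, which share their exons but not their introns, so peaks over exons may hold misplaced reads.

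Translation factors had a member at 7 of 37 genes (18.9%) and a late cluster only at 8. EIF1, which keeps the scanning ribosome from starting at a wrong codon, had 36.2 and 39.9 at 10 min and 37.5 and 27.7 at 20 min. EIF4A2, an RNA helicase that unwinds the 5′ leader of messages, had 25.5 and 32.3 at 10 min and 33.6 and 40.05 at 20 min at chr3:186500872-186508963. EIF4A2 was higher at 20 min in both replicates, and EIF1 overlapped. EEF2, which moves the ribosome along the message, had 19.7 and 18.5 at 10 min and 26.9 and 22 at 20 min, and PABPC1, the poly(A)-binding protein, had 20.0 and 42.2 at 10 min and 25.5 and 36.2 at 20 min. EEF2 was higher in both 20 min libraries and PABPC1 was not. EEF1D, EIF3A and EIF4A1 were the others with a member, and EEF1A1, EEF1G and EIF5A were among those with a late cluster only.

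Genes of splicing and RNA-binding proteins formed the next group. SR splicing factors, which recruit the spliceosome to exons, had a member at 6 of 13 genes (46.2%), namely SRSF1, SRSF2, SRSF3, SRSF6, SRSF7 and TRA2B. Their 7 clusters were all downstream of the SR gene's own 5′ end, at a median of 2876 bp, and wide, with a median of 4455 bp. At SRSF1 the relative heights were 31.2 and 29.3 at 10 min and 32.2 and 28.3 at 20 min, at SRSF3 30.2 and 51.7 at 10 min and 24.7 and 31.9 at 20 min, and at SRSF7 18.6 and 25.3 at 10 min and 25.5 and 22.3 at 20 min. The times overlapped at all 3. hnRNP genes had a member at 6 of 23 (26.1%), HNRNPA1, HNRNPA2B1, HNRNPA3, HNRNPC, HNRNPH3 and HNRNPR, and a late cluster only at 7. HNRNPA3 had 21.2 and 19.1 at 10 min and 26.4 and 31.3 at 20 min, higher in both 20 min libraries. HNRNPA2B1 and HNRNPH3 are the gene bodies that held the clusters named for CBX3 and PBLD, with 12.9 and 20.1 at 10 min and 15.4 and 18.3 at 20 min in the former.

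Immediate-early genes, which are switched on by growth signals without new protein synthesis, had a member at 10 of 20 (50%). They were FOS, FOSB, FOSL1, FOSL2 and JUNB of AP-1, the transcription factors EGR1 and MYC, IER2, the matrix protein gene CCN1 and the survival factor MCL1, while JUN, JUND and SRF had a late cluster only. Their 13 clusters were all downstream, at a median of 2381 bp, in genes with a median length of 7185 bp. EGR1 had 23.7 and 27.9 at 10 min and 34.5 and 42.7 at 20 min, so that the times did not overlap. FOS had 17.2 and 47.9 at 10 min and 20.9 and 25.9 at 20 min, with the widest spread in CPT10. MYC stood below the member median in every library, at 15.4 and 18.2 at 10 min and 17.1 and 7.79 at 20 min. IER2 had 22.6 and 27.6 at 10 min and 36.3 and 27.3 at 20 min, and CCN1 had 19.7 and 24.6 at 10 min and 14.8 and 25.4 at 20 min, both overlapping.

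The EGFR pathway list, whose genes code for receptors, ligands and negative feedback of growth factor signalling, had a member at 6 of 21 (28.6%). These were the ligand EREG, the MAP kinase phosphatases DUSP4, DUSP5 and DUSP6, the receptor inhibitor ERRFI1 and PHLDA1. ERRFI1 had 29.3 and 47.4 at 10 min and 43.2 and 53.5 at 20 min, and PHLDA1 had 28.7 and 36.6 at 10 min and 41.5 and 19.4 at 20 min, both overlapping. DUSP6, which inactivates ERK, had 14.9 and 21.2 at 10 min and 22.3 and 23.2 at 20 min, and EREG 19.9 and 21.5 at 10 min and 28.4 and 20.9 at 20 min. DUSP6 was higher in both 20 min libraries and EREG was not. EGFR, ERBB2 and AREG had neither a persistent nor a late cluster.

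Chaperone genes had a member at 8 of 27 (29.6%), and 5 more had a late cluster only. HSPA8, the constitutive cytosolic HSP70, had 25.2 and 43.5 at 10 min and 63.3 and 59.0 at 20 min at chr11:122927893-122933170, and both 20 min values were above both 10 min values. HSP90AB1, the constitutive HSP90, had 28.3 and 29.0 at 10 min and 28.2 and 25.3 at 20 min, a narrow range with both 20 min values below. DNAJA1, a partner of HSP70, had 29.0 and 34.9 at 10 min and 34.4 and 19.7 at 20 min, and the cluster in HSPD1 had 36.5 and 26.5 at 10 min and 32.9 and 24.3 at 20 min. The times overlapped at the latter pair. HSPA5, HSPA9, HSP90B1 and TCP1 had members too, whereas the stress-induced HSPA1A and HSPA1B had none.

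Genes of the cytoskeleton and of chromatin were hit at a similar rate. Actin, tubulin and keratin genes had a member at 6 of 23 (26.1%), among them TUBA1B, an alpha-tubulin, with 31.3 and 52.6 at 10 min and 41.8 and 40.5 at 20 min. The cluster shared by KRT8 and KRT18 had 20.3 and 17.7 at 10 min and 17.7 and 17.9 at 20 min. That at KRT19 had 14.1 and 19.7 at 10 min and 19.5 and 14.5 at 20 min. The times overlapped at all 3. Replication-dependent histone genes had a member at 11 of 44 (25%), but these shared 6 clusters, because neighbouring histone genes lie within 5 kb of each other. The histone clusters were closer to the start than those of the other lists, at a median of 362 bp, in genes with a median length of 613.5 bp. H2AC15 had 39.2 and 43.9 at 10 min and 64.8 and 40.5 at 20 min, and the 10 min values lay on either side of the lower 20 min value. Histone genes are near-identical copies, so reads could be placed on the wrong one.

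Other lists had few members. KLF factors had 2 of 16 (12.5%), KLF2 and KLF3, Wnt pathway genes 3 of 22 (13.6%), TCF7L2, RNF43 and MYC, and p53 targets 2 of 24 (8.33%), PMAIP1 and TNFRSF10B. TNFRSF10B, the death receptor DR5, had 40.4 and 51.1 at 10 min and 41.4 and 34.8 at 20 min, and PMAIP1, which encodes NOXA, had 18.6 and 40.9 at 10 min and 21.0 and 29.3 at 20 min. Both p53 targets had overlapping times, and CDKN1A and MDM2 had neither a persistent nor a late cluster. TCF7L2, the transcription factor that binds β-catenin, had 8.76 and 14 at 10 min and 18.1 and 11.5 at 20 min, below the member median in each library. Of 16 genes for topoisomerases and the repair of Top1 damage only MUS81 (6.25%) had a member, in CFL1 as described above, and TOP1 itself had none.

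**Figure D3:**
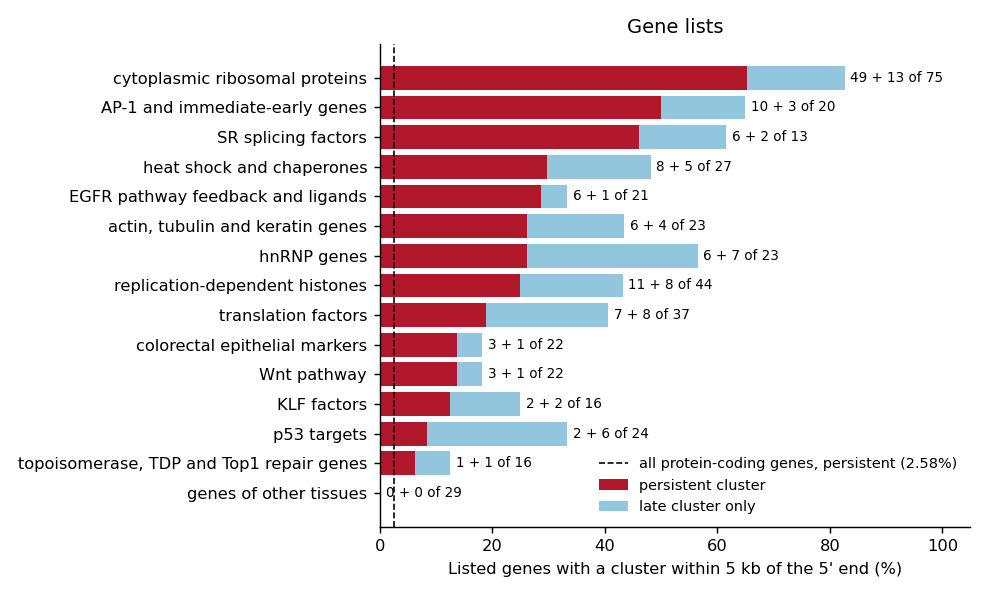
Share of listed genes (%) with a persistent cluster within 5 kb of the 5′ end, and stacked on it the share with a late cluster only, for 15 gene lists, with the share of all protein-coding genes (2.58%) as a dashed line. Ribosomal protein genes lead with 65.3%, followed by immediate-early genes with 50% and SR splicing factors with 46.2%, and genes of other tissues stand at 0.

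A change between 10 and 20 min was looked for next, to ask whether clusters already present at 10 min went on to gain height. The median log2 relative height over members was 4.01 and 4.26 at 10 min (mean 4.13 ± 0.17 SD, n = 2) and 4.31 and 4.28 at 20 min (4.29 ± 0.02 SD, n = 2). The 20 min libraries were both above the 10 min libraries, by 0.16 on average, with p = 0.333 in a two-sided exact permutation test, the smallest value that 4 libraries allow. Most of the difference came from CPT10 replicate 1, the library with the highest expected height. The difference was 0.30 between the libraries numbered 1 and 0.02 between those numbered 2, and it was 0.04 without CPT10 replicate 1 and 0.28 without CPT10 replicate 2.

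Member by member, no change passed the test. In a limma fit over the 855 persistent clusters of chromosomes 1 to 22 and X, those near gaps included, 0.0% were called at an adjusted p under 0.05, and so 0 members, with a smallest adjusted p of 0.894. Without adjustment 19 members and 37 of all clusters had a limma p under 0.05. With the replicate number as a block these were 33 and 67, again with 0 called and a smallest adjusted p of 0.177. Both 20 min values were above both 10 min values at 92 members (22.3%), against 18.5% of all persistent clusters, and below both at 27 members (6.54%), against 11.5%. All persistent clusters include the members, so these are not shares of separate sets. The median log2 ratio of 20 to 10 min was 0.13 over members and 0.06 over all persistent clusters, and 272 members had a ratio above 0.

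The 3 members with the largest rises, among those whose ratio had the same sign for both replicate numbers, were PCGF6, RIPK1 and APPBP2. PCGF6, of a Polycomb repressive complex, went from 6.58 and 13 at 10 min to 24.2 and 16.3 at 20 min, a log2 ratio of 1.10 (SE 0.40, limma adjusted p = 0.894). RIPK1, a kinase of cell death signalling, had 20.3 and 19.4 at 10 min and 42.8 and 41.2 at 20 min, a log2 ratio of 1.08 (SE 0.36, limma adjusted p = 0.894). Its replicates were close to each other at both times. APPBP2, part of a ubiquitin ligase, had 10.9 and 13.1 at 10 min and 19.9 and 32.0 at 20 min, a log2 ratio of 1.08 (SE 0.38). Lower values at 20 min were seen at NUFIP2, an RNA-binding protein gene, with 30.4 and 25.3 at 10 min and 15.1 and 14.4 at 20 min, a log2 ratio of -0.91 (SE 0.37, limma adjusted p = 0.894). The clusters at C18orf32 and RPL17, which share a read-through transcript, and at NOL11, a gene of ribosome assembly, had log2 ratios of -0.90 (SE 0.38) and -0.68 (SE 0.37). HSPA8 and RCC1, described above, had log2 ratios of 0.89 (SE 0.38, limma adjusted p = 0.939) and 0.54 (SE 0.36, limma adjusted p = 0.997). None of these passed the test across all clusters.

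The sides of the clusters were then compared. By strand, the highest forward and the highest reverse peak were assigned to the upstream or the downstream side along the transcription of the nearest gene. They can lie anywhere in the cluster and need not flank the same break. The median of forward minus reverse summit was 283 and 175 bp at 10 min and 276 and 279 bp at 20 min. Its lower quartile was -238, -200, -148 and 24 bp in the same order. The sides thus describe whole clusters and not the ends of single breaks. The higher peak was on the upstream side more often than on the downstream side in all 4 libraries, at 247 of 413 members (59.8%) and 233 (56.4%) at 10 min and at 258 (62.5%) and 248 (60.0%) at 20 min. The median log2 ratio of the downstream to the upstream side was -0.19 and -0.16 at 10 min and -0.21 and -0.21 at 20 min, a mean of -0.19 (SD 0.03, n = 4). The times differed by -0.04, with p = 0.333 in the exact permutation test, again the smallest possible. The direction was the same for genes on either strand, with 55.9% to 64.2% upstream for plus-strand genes and 54.1% to 64.1% for minus-strand genes over the 4 libraries, so it did not follow the reference strand.

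Split by position, members downstream of the nearest 5′ end had 61.9% and 58.0% at 10 min and 64.4% and 61.6% at 20 min with the upstream side higher, and members upstream of it 51.2% and 50% at 10 min and 54.9% and 53.7% at 20 min. The difference between the 2 sets was not tested, and most of the upstream members lie in a gene other than the one their sides were set along. The sides were therefore also set along the protein-coding gene that holds the midpoint, an alternative chosen after seeing the data. Of 56 upstream members in genes of 1 strand, 37 turned their sides, and the upstream side was then higher at 55.4% and 57.1% at 10 min and at 57.1% and 62.5% at 20 min. Downstream members stood at 62.1%, 58.3%, 64.1% and 60.8% in the same order. Over all 365 members in genes of 1 strand the mean log2 ratio was -0.21, close to the -0.19 with the nearest gene. Late clusters at gene starts stood at 55.0% and 57.1% at 20 min. In all 4 libraries the upstream side was higher at 93 members and the downstream side at 33. SLC38A2 was among the former and TUBA1B among the latter. For TUBA1B, the log2 ratio of downstream to upstream side was 0.99 and 2.2 at 10 min and 1.75 and 1.48 at 20 min, and for SLC38A2 -0.77 and -0.48 at 10 min and -0.45 and -0.55 at 20 min.

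**Figure D4:**
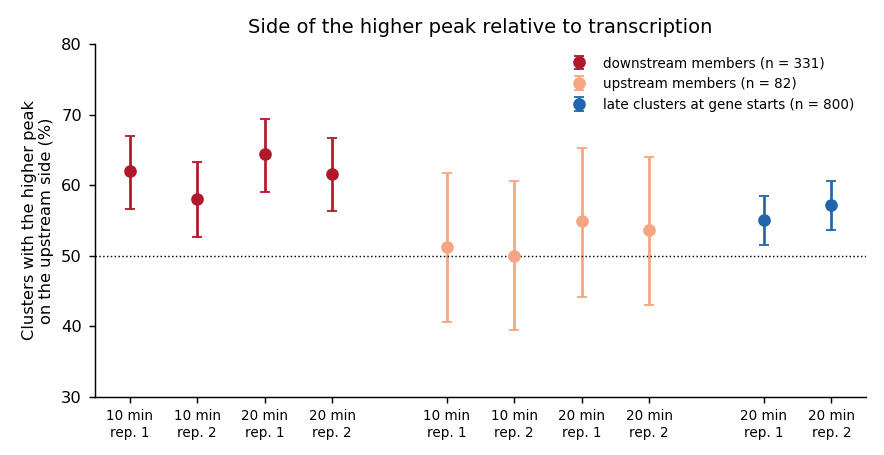
Share of clusters (%) per library in which the highest upstream-side peak is higher than the highest downstream-side peak, with 95% Wilson intervals. Members downstream and upstream of the 5′ end are shown with sides along the nearest gene, beside comparison clusters. A dotted line marks equal shares. Members downstream of the 5′ end stand at 58.0% to 64.4% and members upstream of it at 50% to 54.9%.

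Peaks of all heights were counted around the 5′ ends in the same way, as a description for the genes with a member. In the first 1 kb, upstream-side peaks outnumbered downstream-side peaks by 1.38 and 1.31 at 10 min and by 1.26 and 1.32 at 20 min. From 1 to 3 kb, where 199 members lie, the ratio was 0.964 and 0.883 at 10 min and 0.900 and 0.924 at 20 min. The rule pairs each reverse peak with a forward peak that overlaps it or starts to its right. Along transcription this favours upstream-side peaks nearer the start and downstream-side peaks farther in. In genes with a member, neither the higher ratio in the first 1 kb nor the lower ratio from 1 to 3 kb is therefore a finding. Other protein-coding genes are those left without a member by the same rule, and some of them hold a late cluster. They had 1.23 and 1.31 at 10 min and 1.36 and 1.65 at 20 min in the first 1 kb. From 1 to 3 kb they had 1.00, 1.01, 1.01 and 1.09.

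**Figure D5:**
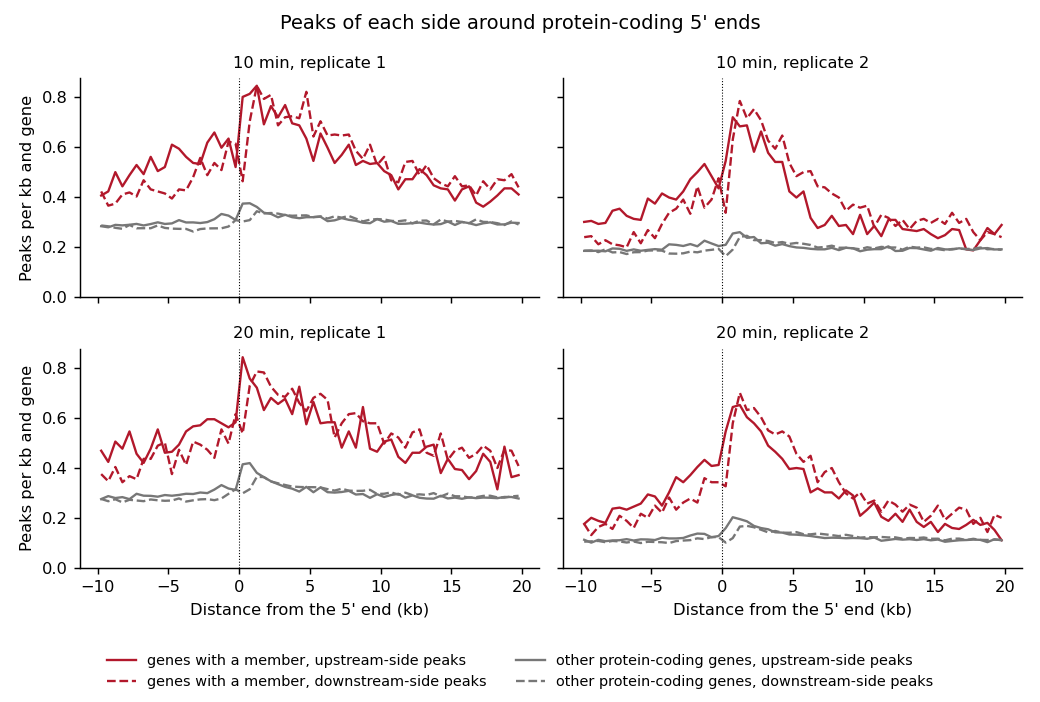
Peaks per kb and gene against the distance from the protein-coding 5′ end (kb, along transcription), in 1 panel per library, for genes with a member and other protein-coding genes and for upstream-side and downstream-side peaks. In the first 1 kb the upstream-side curve of genes with a member lies above the downstream-side curve in every panel, with ratios of 1.26 to 1.38. The rule that chose members favours this order, so it is given as a description only.

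Peaks at genes with a member were not limited to the start. Peaks of either strand were counted here, whether or not they were paired into a site. Of 492 genes with a member, 367 entered this count. From 5 kb to the 3′ end, beyond the window for midpoints, 367 genes with a member had 1.04 and 0.714 peaks per kb at 10 min and 1.00 and 0.555 at 20 min. In 15610 other genes the means were 0.604 and 0.393 at 10 min and 0.578 and 0.236 at 20 min. Genes with a member thus had 1.72, 1.82, 1.74 and 2.36 times as many peaks per kb, in the order of the levels just given. The clusters themselves reached past 5 kb in 40 of these genes. With the intervals of all members taken out of peaks and length, an alternative chosen after seeing the data, the ratios were 1.70, 1.72, 1.70 and 2.22 in the gene body over 358 genes with a member. Around the 3′ end, within 2.5 kb, the ratio was 1.59, 1.59, 1.55 and 1.98, and 1.60, 1.55, 1.55 and 1.91 without these intervals. In the flanks 5 to 50 kb outside the genes it was 1.29, 1.25, 1.31 and 1.38, lower than in the gene body in each library. The neighbourhood of these genes thus also held more peaks, and against all genes the body ratio was 1.32 to 1.68 once divided by the flank ratio.

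Members also lay in regions with more peaks than the autosomal mean. The peak density 5 to 50 kb around a member had a median of 1.47 times that mean. On chromosome arm 17q, with 50 members, it was 2.25, on 8q, with 24, it was 2.06 and on 10q, with 18, it was 2.29. On 17q 6.95% of protein-coding genes had a member, on 8q 6.84% and on 10q 3.76%, against 2.58% of all. The DNA copy number of these arms was not measured here, and its part in the result was not tested. Without 17q, 8q and 10q, 82.6% of members were downstream and the log2 ratio of downstream to upstream side was -0.19.

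Gene length and base composition were compared last. The 380 nearest genes that gave members their names were short, with a median of 17330 bp against 27596 bp for all protein-coding genes. Without the ribosomal protein genes the median of the former was 19279 bp. The median GC content of members was 47.0%, close to the 47.9% of the stretch 0.5 to 2.5 kb downstream of the 5′ end in genes with a member and the 48.1% in other genes. GC skew on the coding strand, the excess of G over C as a share of both, was 4.77% in members, 4.61% in that stretch of genes with a member and 3.11% in other genes. The ratio of observed to expected CpG was 0.476 in members, 0.457 in that stretch of genes with a member and 0.351 in other genes.

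The G runs marked in the printed sequences were common everywhere. The 200 bases centred between the highest summits, which need not contain either summit, were searched for GGG on the coding strand. It was found at 349 of 413 members (84.5%, 95% Wilson interval 80.7% to 87.7%), with 2.55 runs per window. In windows of 200 bases centred 1500 bp downstream of the 5′ end of other protein-coding genes, 16216 of 18602 (87.2%) held it, with 3.18 runs per window. CCC, the same motif on the opposite strand, was in 77.7% of member windows and 85.4% of the others. Member windows thus held neither motif more often than these windows at a fixed distance, although members lie at varied distances and 82 lie upstream. Among the 331 downstream members, 84.9% of windows held GGG and 77.9% held CCC.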

How the data were processed

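END-seq peak lists of 4 CPT-treated HCT116 libraries were used. Per the study's methods, the authors trimmed reads with Trim Galore, aligned them to hg19 with Bowtie2, kept properly paired fragments with duplicates, split them by orientation and called peaks with MACS2 in every library and strand against the untreated library, without local background. The deposited columns are a score per peak (whole part of 10 times the −log10 q), a fold enrichment as a ratio, and −log10 p and −log10 q. From the deposited fold values the whole-number height of each summit and the expected height of its list were worked out. With these, a Poisson tail gave the deposited −log10 p within 5.92e-05 for at least 99.9% of peaks in each list.

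Clusters were built with pandas 2.3.3, annotated with GENCODE release 44 on GRCh37, and named by the nearest protein-coding 5′ end. The 4 samples formed CPT10 and CPT20, 2 each. CPT20 was tested against CPT10 with limma 3.58.1 on log2 relative heights of the 855 persistent clusters of chromosomes 1 to 22 and X, near gaps included, with Benjamini-Hochberg adjustment, and per-library medians with an exact permutation test of 4 libraries. The limma step was tested on simulated data. The study's removal of blacklisted regions and its test against control reads were not repeated. Genes named are the 12 members with the best worst rank, the widest, the best-ranked members of each list, and those nearest to 5 kb. Also named are the largest changes among members whose ratio had the same sign for both replicate numbers. Other genes are named as counts of a list, and genes with several clusters, NBPF1, TBC1D3L and listed genes without a cluster were named after their values were seen. Members and lists were chosen with earlier results of these data known. Alternatives were other q thresholds, site rules, gene annotations, windows, height measures and left-out libraries.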

Additional observations from a re-analysis of the deposited data

How the results depend on the processing

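Among the alternatives over 13 results, 15 moved and 0 reversed. The other 86 kept counts within 1.5 times, ratios of the times or sides in direction only, and other values within their interval or replicate SD. The number of members, 413, was 282 to 613 where it stayed within 1.5 times, 55 with −log10 q of at least 10, 94 with a 1 kb window, and 500 to 733 when 1 library was left out, with 733 without CPT10 replicate 2 and 647 without CPT20 replicate 2. The median position, 1502 bp, was 1639 with −log10 q of at least 10, 1598 with only overlapping or touching peaks, 675.5 with 5′ ends of all transcripts and 814 with all annotated genes, and the downstream share was 75.2% and 67.6% with the last 2. The gene body ratio over all genes, 1.87, was 1.44 after division by the flanks and 4.99 with −log10 q of at least 10. In 300 bp around the midpoint the GC content was 43.7% and the GC skew 5.88%, and the skew of downstream members was 5.56%. The lists, counted with alternatives chosen after seeing the data, held 46 to 56 ribosomal protein, 9 to 12 immediate-early, 6 to 7 SR and 8 to 11 chaperone genes with a member.

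The times share replicate numbers. The study's methods list both times within each of 2 experiments, whereas the labels do not tie a number to an experiment, so the pairing is likely but not given. Deviations of same-numbered libraries correlated over 413 members with r = 0.30, and their heights with r = 0.67 and 0.68, against 0.50 to 0.65 for the other pairs of libraries. With the replicate block, the log2 ratio of 20 to 10 min stayed at 0.16 (exact sign test p = 0.5, the smallest possible), and limma called 0 members, with 33 at an unadjusted p under 0.05, so the block changed no call. With 1 library left out, the ratio was 0.04 to 0.28 and limma called 0 members each time, the lone library of a time being assumed to vary like the others. Depth limits single members, whose summits hold a median of 13 to 25 fragments, and 2 libraries per time allow no exact p below 0.333.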

Other observations

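Overlap with genes of small nucleolar RNAs (snoRNAs) and the related scaRNAs, which guide RNA modification, was noticed after the values were seen and is given with no test. An annotated snoRNA or scaRNA gene was overlapped by 32 of 413 members (7.75%), by 8 of 313 persistent clusters away from gene starts (2.56%), by 10 of 800 late clusters (1.25%) and by 2 of 589 transient clusters (0.34%). The persistent clusters are wider, so they cover more annotation. Counted by gene, 47 of 396 protein-coding genes with such an RNA inside on the same strand (11.9%) had a member within 5 kb of the 5′ end, against 445 of 18699 other genes (2.38%). Some hosts, such as RPL3, EEF2 and EIF4A2, are also on the lists of ribosomal protein and translation factor genes, and the part of these lists in the count was not tested. EIF4A2 had 5 such RNAs within its cluster and HSPA8 had 3.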
